A study of Mus musculus with 6 samples.

Results

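The sirtuins Sirt1 to Sirt7, the NAD salvage enzymes Nampt and Nmnat1, and the NAD-consuming enzyme Parp1 were examined for acetylation of histone H3 (H3ac) in mouse mesenchymal stem cells (MSCs) of bone. The regions taken were those of the H3ac table whose mm10 interval overlapped the body of one of these genes, extended by 5 kb at each end (GENCODE release M21). This rule gave 17 of the 24431 regions, and each of the 10 genes had at least 1, so no gene was without a region. Sirt4, Nmnat1 and Parp1 had 1 region each, and each of the other 7 genes had 2. H3ac was profiled by CUT&RUN, in which a nuclease tethered to an antibody releases the DNA around the modified histone. Cells of the Young group were taken at an age of 3 to 5 months and those of the Old group at 18 to 22 months, and neither was treated. The OldAcetate cells, also of 18 to 22 months, received 5 mM sodium acetate, a source of acetyl groups, for 3 days. All groups were kept at 2% O2 in medium with 10% FBS and 1% penicillin and streptomycin, and each had 2 libraries. The labels do not say whether the libraries of a group came from separate mice or cultures, so a p-value measures only the spread between these samples, which may be technical.

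Sirtuins remove acetyl and other acyl groups from lysines and use up NAD+ in each reaction. Sirt1, Sirt6 and Sirt7 act mainly in the nucleus, where H3 is among their substrates, Sirt2 mainly in the cytosol, and Sirt3, Sirt4 and Sirt5 in mitochondria. Nampt makes nicotinamide mononucleotide from the nicotinamide that sirtuins and PARPs release, the rate-limiting step of salvage, and Nmnat1 turns it into NAD+ in the nucleus, where Parp1 draws on it after DNA damage. In MSCs, Sirt1 is known for favouring bone over fat differentiation. The values here are H3ac at these genes and not their RNA, protein or activity.

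Library totals, inferred from the deposited values, were 2163351 to 3039481 reads. Reads in regions ranged from 1970782 in Young replicate 1 to 1079579 in Old replicate 1, with medians per region of 56 and 31. The Old libraries had the fewest reads in regions. Reads in regions made up 64.8% and 57.8% of the Young libraries, 49.9% and 45.9% of the Old and 57.3% and 56.3% of the OldAcetate. With the values as deposited, the level summed over all regions is this same share, so it is no separate result. What set the share was not tested. Values are given in RPM, the reads of a region scaled to a library total of 1000000, and differences were computed both as deposited ("as given") and after each library was scaled by its median deviation from the region means ("scaled"), which removes a shift shared by all regions. That shift, the median as-given log2 difference of all regions, was -0.35 for Old vs Young and 0.24 for OldAcetate vs Old, while OldAcetate vs Young gave -0.11. Regions lay over or within 1 kb of the start sites of 10 of 10 MSC marker genes, at a median of 3.00 RPM per kb. The same held for 1 of 8 blood markers (Spi1, 1.78 RPM per kb) and 0 of 5 endothelial markers. Counting any region within 5 kb of the gene body, 3 of the 8 blood and 2 of the 5 endothelial markers had a region. With the values as given, 3 of the 10 MSC markers (Pdgfra, Thy1 and Cd44) were called lower in Old than in Young, beside 9.52% of all regions called, and after scaling limma called 0, with 1 at an unadjusted p under 0.05 and a median difference of -0.02. In bulk libraries of this kind, fewer cells carrying the mark and less of the mark per cell cannot be told apart.

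The RefSeq start sites of all 10 genes lay inside a region, and sequence around them was taken from RefSeq (GRCm38.p6), from 250 bases before to 50 after each start. These promoters held a median of 20.0 CpG and 61.5% GC, against 7 CpG and 52.7% GC over all 32851 promoters of the table. Sirt1 had 47 CpG, more than 98.6% of promoters, and Nampt had 36, more than 93.8%. The promoters of the table were taken whether or not they lay in an H3ac region. Over whole regions, the start-site regions of the 10 genes held 2.10 (Sirt4) to 6.49 (Sirt1) CpG per 100 bp. The median of all regions over protein-coding starts was 2.37. On both strands, the E-box CACGTG was found in 2 of the 10 (Sirt1 and Parp1) against 7.15% of all promoters, the GC box GGGCGG in 7 against 35.7%, and CCAAT in 3 against 37.4%. The NRF1 core was found in 1 (Sirt6) against 0.971%, and the cAMP response element TGACGTCA and TATAAA in none of the 10 against 1.79% and 13.6%. A match is a description of the letters and not a site, and no match says only that these letters are not in the window. The 250 bases before the start are shown for Sirt1, Nampt and Parp1, the members with the most GC boxes. Capitals mark GC boxes (GGGCGG, or CCGCCC on the other strand) and E-boxes (CACGTG), and the leftmost pair of GC boxes of Sirt1 overlap. They lie at chr10:63339036-63339285 on the minus strand, chr12:32820085-32820334 on the plus strand and chr1:180568641-180568890 on the plus strand.
Sirt1: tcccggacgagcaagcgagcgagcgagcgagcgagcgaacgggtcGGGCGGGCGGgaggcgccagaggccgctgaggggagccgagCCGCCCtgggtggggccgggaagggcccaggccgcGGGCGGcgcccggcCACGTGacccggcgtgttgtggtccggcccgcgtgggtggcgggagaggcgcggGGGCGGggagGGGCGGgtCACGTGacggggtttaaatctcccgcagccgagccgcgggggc
Nampt: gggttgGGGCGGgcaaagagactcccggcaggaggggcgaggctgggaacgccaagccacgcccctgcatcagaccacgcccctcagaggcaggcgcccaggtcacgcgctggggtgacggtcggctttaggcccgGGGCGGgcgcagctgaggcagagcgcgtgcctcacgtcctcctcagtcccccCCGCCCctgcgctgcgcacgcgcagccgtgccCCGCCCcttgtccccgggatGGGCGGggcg
Parp1: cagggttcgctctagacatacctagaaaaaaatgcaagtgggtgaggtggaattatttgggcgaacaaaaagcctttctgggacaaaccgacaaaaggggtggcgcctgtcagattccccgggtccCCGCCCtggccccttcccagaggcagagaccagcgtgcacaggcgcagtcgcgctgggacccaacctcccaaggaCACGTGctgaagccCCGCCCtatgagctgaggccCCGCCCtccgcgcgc

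Away from the start sites, the Sirt2 intron held the region with the lowest p-values of the 17 when Old was set against Young or OldAcetate against Old, though not in OldAcetate vs Young, and the middle 300 bases of that region (chr7:28780851-28781150, plus strand, GRCm38.p6) are shown for contrast. They hold 6 CpG and no match to any motif above, so nothing is in capitals. Over the whole region there were 1.20 CpG per 100 bp, against 6.49 in the region over the Sirt1 start and a median of 1.06 for regions away from protein-coding starts.
Sirt2 intron: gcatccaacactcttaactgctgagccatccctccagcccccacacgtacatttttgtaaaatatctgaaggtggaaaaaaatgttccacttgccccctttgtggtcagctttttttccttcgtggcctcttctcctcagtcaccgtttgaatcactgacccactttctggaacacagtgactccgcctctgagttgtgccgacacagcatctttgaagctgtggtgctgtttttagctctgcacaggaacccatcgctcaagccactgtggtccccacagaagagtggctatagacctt

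**Figure D1:**
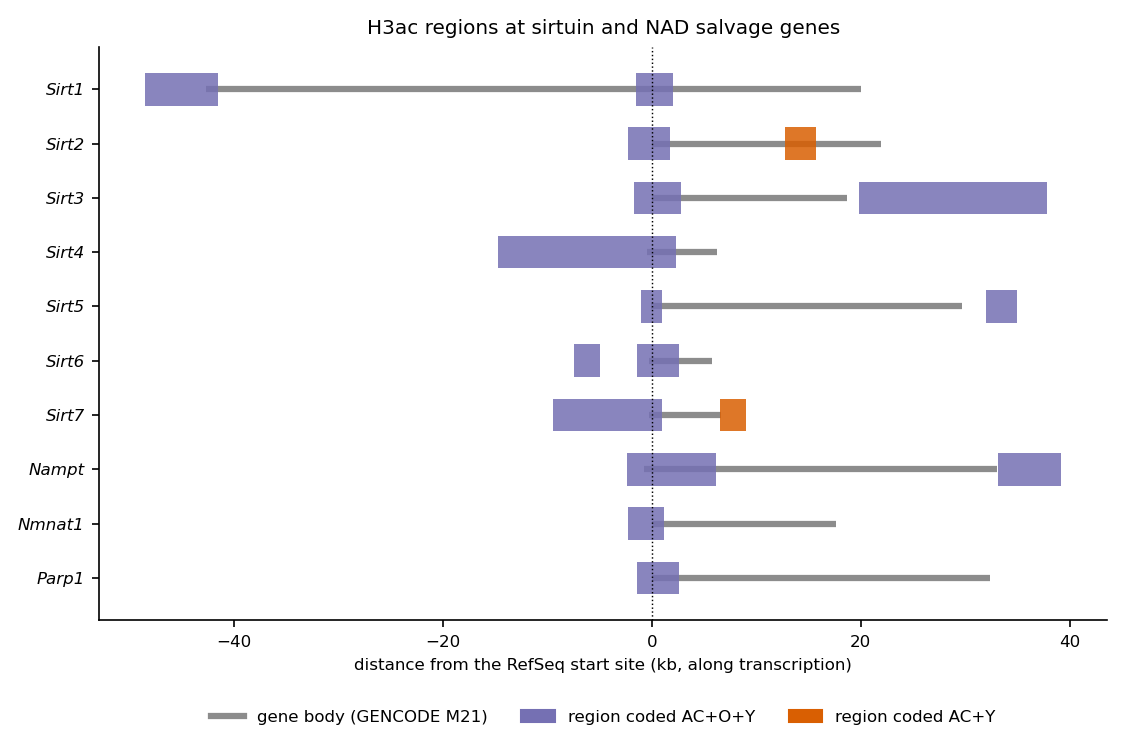
Position of the 17 H3ac regions (boxes) along the 10 genes, in kb from the RefSeq start site in the direction of transcription, with the gene body as a grey line. Each gene has a region over its start, and the 2 orange regions, in the Sirt2 intron and at the Sirt7 3' end, carry the code AC+Y.

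Each region name in the table holds a code of the letters Y, O and AC, which the labels do not define. The code was AC+O+Y in 15 of the 17 regions, as in 80.6% of all regions, and AC+Y in 2, as in 12.1% of all. Several start-site regions also covered a neighbouring start: Nfkbib at Sirt2, Psmd13 at Sirt3, Ankrd24 at Sirt6, Mafg at Sirt7 and Lzic at Nmnat1. Of the other regions, the second Sirt1 region covered that of Dnajc12, the downstream Sirt5 region that of Nol7 and the Sirt7 3' end that of Pcyt2. The region downstream of Sirt3 covered the starts of Gm45785, Scgb1c1, Odf3, Bet1l and Ric8a. The H3ac of all these regions cannot be given to a single gene. The start-site regions of Sirt1, Sirt4, Sirt5, Nampt and Parp1 covered no other protein-coding gene.

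After scaling, no region of the 17 was called different between any groups, and the Sirt2 intron had the differences of largest size in Old vs Young and OldAcetate vs Old. With the values as given, 3 regions were called lower in Old than in Young (the Sirt1 start, the Sirt2 intron and the Sirt3 start), beside 9.52% of all regions called. The Sirt2 intron was also called higher in OldAcetate than in Old, beside 0.311% of all regions called. Summed over the 17 regions, H3ac was 338 and 316 RPM in the Young libraries, 275 and 260 RPM in the Old and 320 and 298 RPM in the OldAcetate. Both Old libraries were the lowest. The group means were 327 ± 15.4, 268 ± 10.6 and 309 ± 15.6 RPM (SD, n = 2), so Old stood at 81.9% of Young against 78.1% over all regions, and OldAcetate at 116% of Old against 119%. An exact permutation test of 2 against 2 libraries cannot go below p = 0.333.

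Of the sirtuins, Sirt1, the nuclear deacetylase of histones and transcription factors, had its lowest values in Old at 1 of its 2 regions. The region over its RefSeq start (chr10:63337001-63340500, minus strand gene, with exons 1 and 2 of the 9-exon transcript that starts there) held 18.8 and 15.1 RPM in Young, 9.71 and 7.56 RPM in Old and 11.1 and 13.8 RPM in OldAcetate. Both Old libraries lay below every other library, and the groups did not overlap. The Young values rest on 57 and 37 reads, the Old values on 21 and 19 and the OldAcetate values on 33 and 33. The scaled log2 difference of Old vs Young was -0.58 (SE 0.26, limma adjusted p = 0.878), while the as-given one was -0.94 (limma adjusted p = 0.0251), a call that was lost without Young replicate 1 (adjusted p = 0.281) or Old replicate 2 (adjusted p = 0.138). Among the 19702 regions of the same code, AC+O+Y, 0.305% had a lower value in this comparison, and among all regions 2.14% did. If the letters name the groups in which a region was found, which was not tested, regions low in Old may be rarer under this code. OldAcetate vs Old differed by 0.27 scaled (SE 0.26) and 0.50 as given (limma adjusted p = 0.313), neither called.

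The other Sirt1 region covered the 5' end of the longest GENCODE model, 42669 bp from the RefSeq start, and also the start of Dnajc12 (chr10:63380501-63387500). It held 18.4 and 18.0 RPM in Young, 20.8 and 18.3 RPM in Old and 17.8 and 16.7 RPM in OldAcetate. Here the Old libraries were not low. Scaled, Old vs Young differed by 0.45 (SE 0.21, limma adjusted p = 0.894) and OldAcetate vs Old by -0.41 (SE 0.21, limma adjusted p = 0.810). As given, these were 0.10 and -0.17.

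Sirt2, a mainly cytosolic deacetylase of tubulin and other proteins, had its largest difference inside the gene rather than at the start. The intronic region (chr7:28779501-28782500, plus strand gene, 0 exonic bases, within intron 8 of the 16-exon transcript) held 9.87 and 12.3 RPM in Young, 2.31 and 3.18 RPM in Old and 8.40 and 10.8 RPM in OldAcetate. Both Old libraries were far below the other 4, and the Young and OldAcetate libraries interleaved. The Old values rest on 5 and 8 reads, with 95% Poisson intervals, which cover counting error only, of 0.750 to 5.39 and 1.37 to 6.27 RPM. In Young there were 30 reads in each library, with intervals of 6.66 to 14.1 and 8.27 to 17.5 RPM, which do not meet those of Old. In OldAcetate, 25 and 26 reads gave intervals of 5.44 to 12.4 and 7.08 to 15.9 RPM. The first meets the interval of Old replicate 2, and the second meets neither Old interval.

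Scaled, the Sirt2 intron differed by -1.49 in Old vs Young (SE 0.35, limma adjusted p = 0.344) and by 1.40 in OldAcetate vs Old (SE 0.35, limma adjusted p = 0.375). The 2 comparisons share the Old libraries, so the same low values enter both with opposite sign. OldAcetate vs Young differed by -0.08, with a 95% interval of -0.77 to 0.60. With the values as given it fell by 1.84 on the log2 scale in Old vs Young (limma adjusted p = 0.00427), a call lost without Young replicate 1 (adjusted p = 0.0724). OldAcetate vs Old was 1.64 (limma adjusted p = 0.0236), lost without OldAcetate replicate 1 (adjusted p = 0.426) or OldAcetate replicate 2 (adjusted p = 0.423). Counted as whole reads in edgeR, the differences were -1.59 (adjusted p = 0.337) and 1.51 (adjusted p = 0.499). Its code, AC+Y, has no O. If the letters name the groups in which a region was found, a low Old value is part of how this region entered the table. That reading was not tested. Under it, neither its p-values nor the gap between its Poisson intervals is an independent measure. The 2964 regions of this code had a median Old vs Young difference of -0.17 scaled and -0.52 as given, and 0.540% of them lay below the Sirt2 intron.

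At the Sirt2 start, shared with Nfkbib (chr7:28764501-28768500), H3ac was 17.1 and 13.5 RPM in Young, 12.5 and 11.5 RPM in Old and 15.1 and 10.0 RPM in OldAcetate. The OldAcetate libraries spanned the range of both other groups. The scaled difference was 0.02 in Old vs Young, with a 95% interval of -0.47 to 0.51, and -0.20 in OldAcetate vs Old (SE 0.25). As given, these were -0.33 and 0.04, of the opposite sign.

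Of the mitochondrial sirtuins, Sirt3, the main mitochondrial deacetylase, was the one whose start-site values in both Old libraries lay below both Young libraries. Its start region, shared with the divergent Psmd13 (chr7:140879501-140884000, minus strand gene), held 22.0 and 20.0 RPM in Young, 11.1 and 13.9 RPM in Old and 19.8 and 17.1 RPM in OldAcetate. The groups did not overlap, with Old lowest and OldAcetate between. Old vs Young differed by -0.38 scaled (SE 0.22, limma adjusted p = 0.900) and by -0.73 as given (limma adjusted p = 0.0391), a call lost whichever of the 6 libraries was left out (limma adjusted p = 0.0544 to 0.281). OldAcetate vs Old differed by 0.31 scaled (SE 0.22) and 0.55 as given (limma adjusted p = 0.215). The broad region past the Sirt3 3' end (chr7:140844501-140862500), which covers the starts of Gm45785, Scgb1c1, Odf3, Bet1l and Ric8a, held 56.6 and 47.0 RPM in Young, 44.4 and 42.2 RPM in Old and 49.7 and 45.0 RPM in OldAcetate. Its differences were 0.10 and -0.11 scaled, and -0.25 and 0.13 as given.

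Sirt4 and Sirt5, which remove other acyl groups in mitochondria, had no called difference and overlapping groups at their starts. The Sirt4 region reached 14275 bp upstream of the GENCODE start (chr5:115482001-115499000) and held 35.2 and 41.3 RPM in Young, 36.1 and 36.2 RPM in Old and 40.0 and 34.2 RPM in OldAcetate. The Sirt5 start, a region of 2000 bp (chr13:43364501-43366500), held 9.21 and 5.31 RPM in Young, 6.47 and 7.95 RPM in Old and 9.74 and 7.92 RPM in OldAcetate. At both starts each group overlapped both others. Scaled Old vs Young differences were 0.27 (SE 0.16) at Sirt4 and 0.38 (SE 0.33) at Sirt5, and those of OldAcetate vs Old were -0.21 (SE 0.16) and 0.04 (SE 0.33). As given, those of Old vs Young were -0.08 and 0.03, and those of OldAcetate vs Old 0.03 and 0.28, so the sign at Sirt4 turned with the scaling. The region past the Sirt5 3' end, over the start of Nol7 (chr13:43397501-43400500), ranged from 7.40 to 10.8 RPM over the 6 libraries.

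Sirt6 and Sirt7, nuclear deacetylases that act on H3 at telomeres and at ribosomal and other genes, each had a region whose highest values were those of OldAcetate. At the Sirt6 start (chr10:81625001-81629000, shared with Ankrd24), H3ac was 10.5 and 9.80 RPM in Young, 7.86 and 12.7 RPM in Old and 15.1 and 13.8 RPM in OldAcetate. Both OldAcetate libraries lay above the other 4. The scaled difference of OldAcetate vs Young was 0.60 (SE 0.27, limma adjusted p = 0.964) and that of OldAcetate vs Old 0.27 (SE 0.27), beside 0.49 and 0.51 as given. The region upstream of Sirt6, inside Ankrd24 (chr10:81632501-81635000), held 7.57 and 10.6 RPM in Young, 6.47 and 3.98 RPM in Old and 5.38 and 7.92 RPM in OldAcetate, with an Old vs Young difference of -0.41 scaled (SE 0.35) and -0.76 as given (limma adjusted p = 0.137).

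At the Sirt7 3' end, over the start of Pcyt2 (chr11:120616001-120618500), H3ac was 5.26 and 4.49 RPM in Young, 5.55 and 5.17 RPM in Old and 8.06 and 9.18 RPM in OldAcetate. Again both OldAcetate libraries were the highest. OldAcetate vs Young differed by 0.87 scaled (SE 0.36, limma adjusted p = 0.964) and OldAcetate vs Old by 0.40 (SE 0.36), beside 0.76 and 0.64 as given. These values rest on 11 to 24 reads per library. The code of this region is AC+Y, as at the Sirt2 intron, but here the Old libraries were not below those of Young. Over the Sirt7 start, shared with Mafg (chr11:120624001-120634500), the values were 37.8 and 31.9 RPM in Young, 33.3 and 26.6 RPM in Old and 31.9 and 30.0 RPM in OldAcetate. The groups overlapped there, with a scaled difference of 0.13 for Old vs Young and of -0.18 for OldAcetate vs Old (SE 0.17 each), and -0.22 and 0.06 as given, of the opposite sign.

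**Figure D2:**
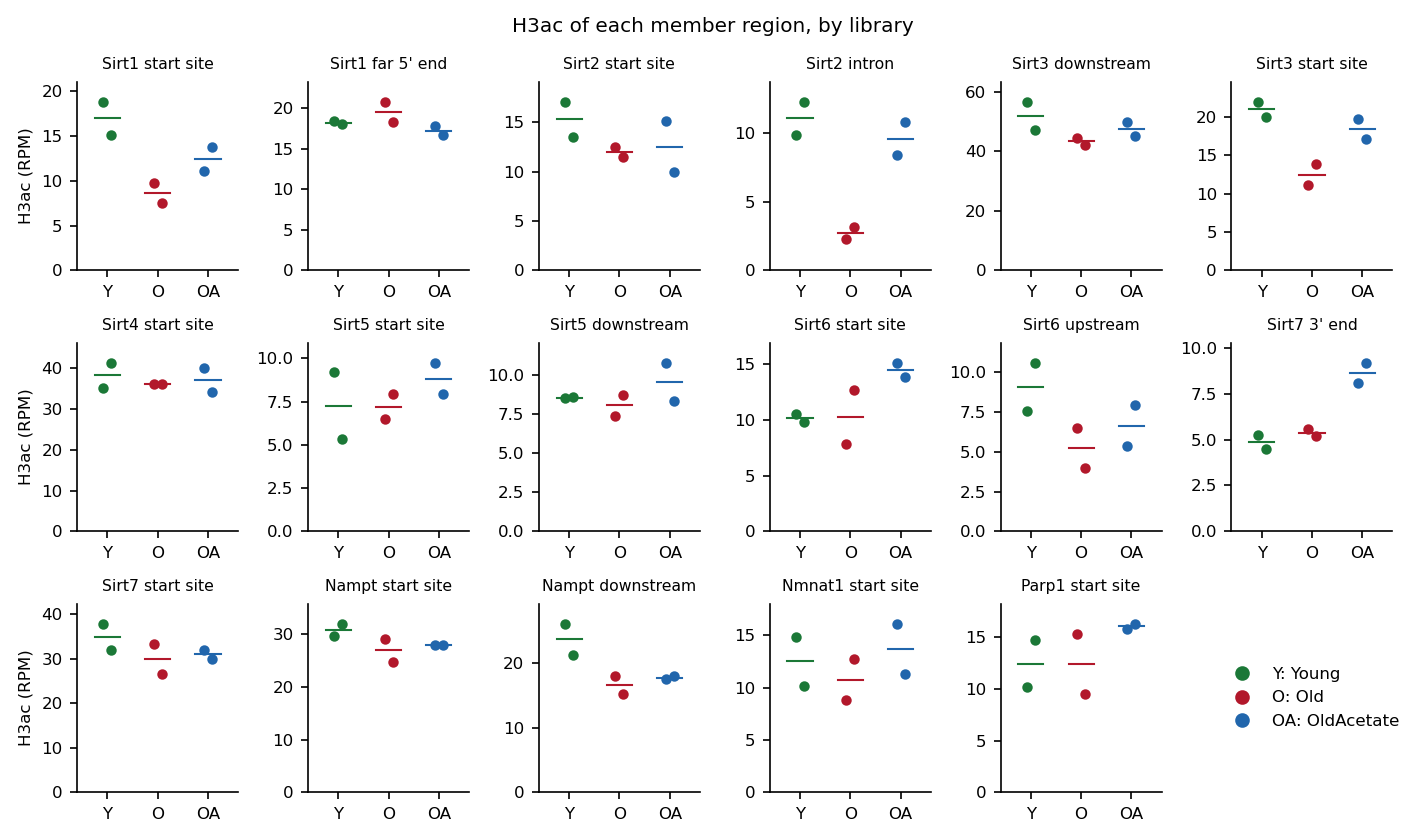
H3ac in RPM (y axis, from 0, separate scale per panel) of each of the 17 regions in every library (points) with the group mean (line), for Young (Y), Old (O) and OldAcetate (OA). The Sirt2 intron has the widest gap, with Old at 2.31 and 3.18 RPM and every other library at 8.40 RPM or more.

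Nampt, the rate-limiting salvage enzyme, had no called difference at either of its regions. Its start region (chr12:32818001-32826500, plus strand gene, exon 1 and part of the intron after it) held 29.6 and 31.9 RPM in Young, 29.1 and 24.7 RPM in Old and 27.9 and 27.9 RPM in OldAcetate. Young was highest and the other groups overlapped. Scaled, Old vs Young differed by 0.16 (95% interval -0.19 to 0.50), OldAcetate vs Old by -0.18 (-0.53 to 0.16) and OldAcetate vs Young by -0.02 (-0.37 to 0.32). As given, these were -0.19, 0.06 and -0.14, so Old vs Young and OldAcetate vs Old changed sign. The region past the Nampt 3' end (chr12:32853501-32859500) covered no protein-coding gene and held 0.950 CpG per 100 bp, the fewest of the 17. Its H3ac was 26.0 and 21.2 RPM in Young, 18.0 and 15.1 RPM in Old and 17.5 and 17.9 RPM in OldAcetate. Both the Old and the OldAcetate libraries lay below Young. The Old vs Young difference was -0.15 scaled (SE 0.21) and -0.50 as given (limma adjusted p = 0.121).

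Nmnat1 and Parp1 had overlapping Young and Old libraries. At the Nmnat1 start, shared with Lzic (chr4:149484001-149487500), H3ac was 14.8 and 10.2 RPM in Young, 8.78 and 12.7 RPM in Old and 16.1 and 11.3 RPM in OldAcetate. At the Parp1 start (chr1:180567501-180571500) it was 10.2 and 14.7 RPM in Young, 15.3 and 9.55 RPM in Old and 15.8 and 16.3 RPM in OldAcetate. Both OldAcetate libraries of Parp1 were above the other 4, and their Young and Old libraries interleaved. Scaled Old vs Young differences were 0.14 (SE 0.27) at Nmnat1 and 0.33 (SE 0.26) at Parp1, those of OldAcetate vs Old 0.10 (SE 0.27) and 0.16 (SE 0.26), and those of OldAcetate vs Young 0.24 (SE 0.27) and 0.49 (SE 0.26). As given, the corresponding differences were -0.21 and -0.02, then 0.34 and 0.39, then 0.13 and 0.37, so both Old vs Young signs turned with the scaling.

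**Figure D3:**
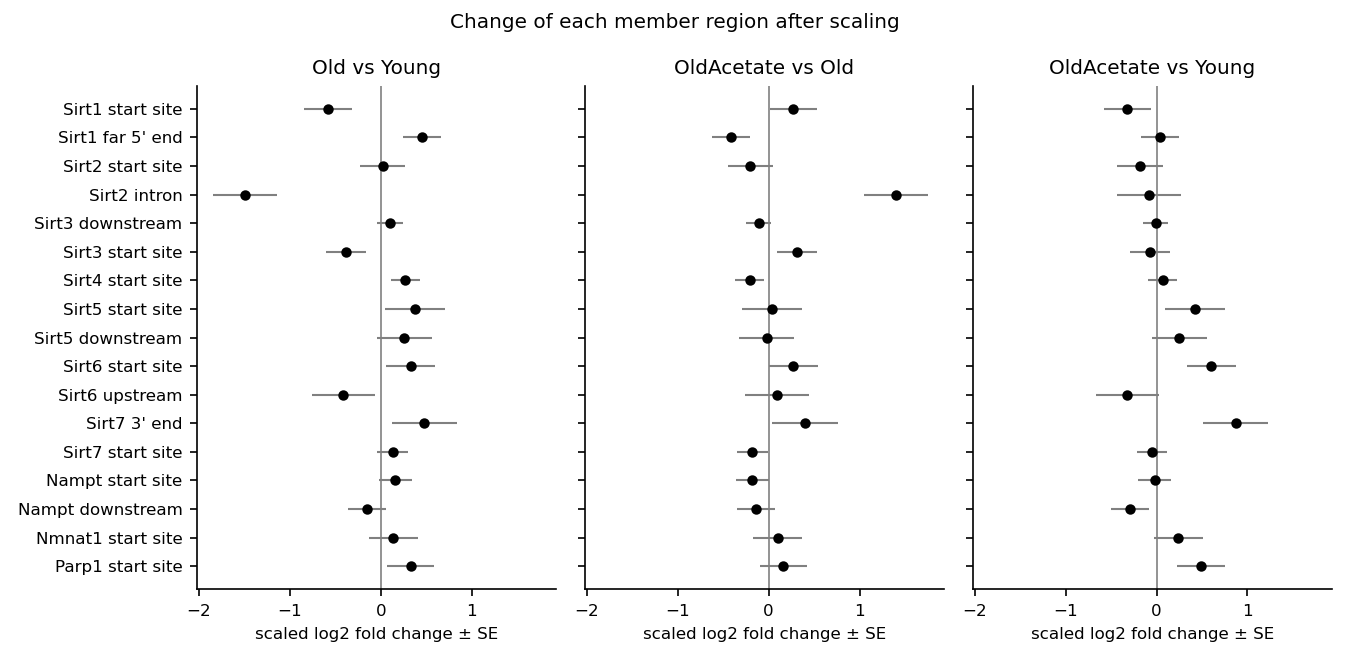
Scaled log2 difference of H3ac (x axis, log2 of RPM + 0.5) for each of the 17 regions in the 3 comparisons, as point and SE. The Sirt2 intron lies at -1.49 for Old vs Young and at 1.40 for OldAcetate vs Old, and every other region within 0.87 of 0.

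In counts, limma called 0 of the 17 regions after scaling in Old vs Young, beside 0.00819% of all regions tested. For OldAcetate vs Old it called 0, and for OldAcetate vs Young also 0, beside 0% of all regions each time. Of the 17, 3, 1 and 2 had an unadjusted p under 0.05, beside 5.54%, 6.24% and 5.08% of all regions, and edgeR on whole reads called 0 in each comparison. With the values as given, limma called 3 of 17 (17.6%) in Old vs Young, all lower in Old, beside 9.52% of all regions, of which 2320 of 2327 were lower. OldAcetate vs Old had 1 call (5.88%), higher in OldAcetate, beside 0.311%, and OldAcetate vs Young 0 beside 0%. As given, an unadjusted p under 0.05 was reached by 5, 2 and 1 of the 17 in these comparisons, beside 32.0%, 18.0% and 6.10% of all regions. The median difference of the 17 in Old vs Young was 0.14 scaled but -0.21 as given, so its sign turned with the scaling, beside 0.00 and -0.35 for all regions. In OldAcetate vs Old the median was 0.04 scaled and 0.28 as given, beside 0.00 and 0.24.

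Groups that did not overlap were read in the same way, on the values as given. Both Old libraries were below both Young libraries in 8 of the 17 regions (47.1%), beside 60.2% of all regions, and above them in 0, beside 1.29%. Both OldAcetate libraries were above both Old libraries in 7 (41.2%), beside 47.1%, and below them in 1, the Sirt1 region shared with Dnajc12 (5.88%), beside 3.46%. Against Young, both OldAcetate libraries were lower in 5 (29.4%), beside 29.8%, and higher in 3 (17.6%), beside 7.60%. Those 3 were the Sirt6 start, the Sirt7 3' end and the Parp1 start. The shares lower in Old than in Young and higher in OldAcetate than in Old were thus no larger than over the whole table.

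**Figure D4:**
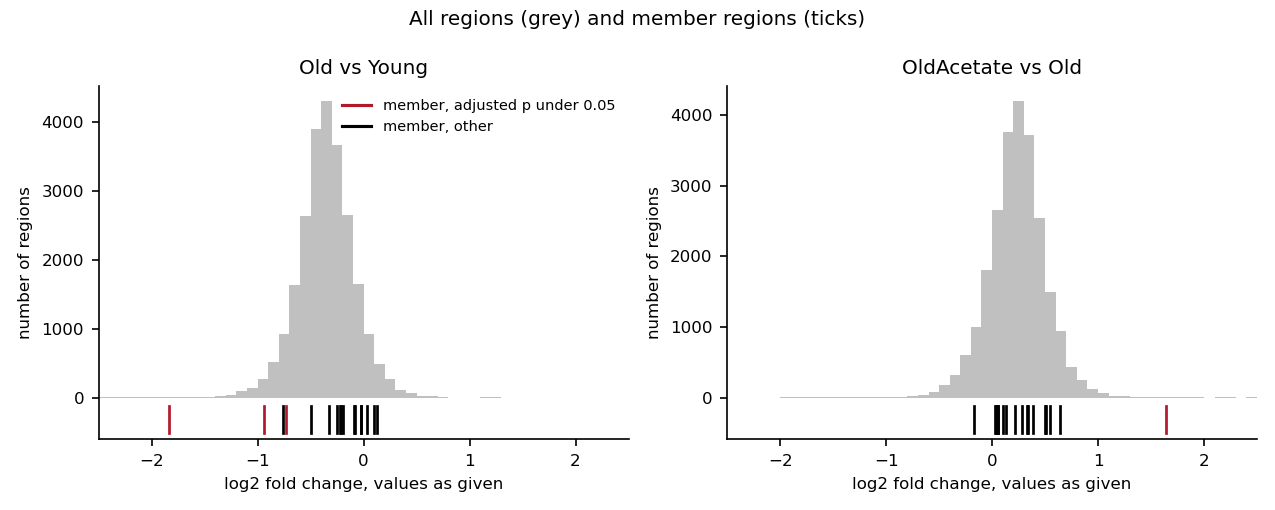
Number of all 24431 regions (grey bars, y axis) by log2 difference with the values as given (x axis, bins of 0.1), and the 17 regions of these genes as ticks below, red where the limma adjusted p was under 0.05. Most ticks lie within the body of the distribution, and the Sirt2 intron lies outside it at -1.84 and 1.64.

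Over all regions, Old stood at 78.1% of Young and OldAcetate at 119% of Old, which restates the share of reads in regions. Summed per gene and as given, Sirt2 had the lowest Old share of Young, 56.0%, followed by Sirt3 with 76.6%, Nampt with 80.0%, Sirt1 with 80.2% and Sirt6 with 80.6%. Nmnat1 stood at 86.0%, Sirt7 at 88.9%, Sirt4 at 94.5%, Sirt5 at 96.6% and Parp1 at 99.6%. OldAcetate was 150% of Old at Sirt2, 136% at Sirt6, 129% at Parp1 and 127% at Nmnat1, and 103% to 120% at the other 6 genes. The sums include regions over the starts of other genes. In Young means, the region past the Sirt3 3' end held 51.8 of 72.8 RPM, and the Sirt1 region shared with Dnajc12 held 18.2 of 35.1 RPM. With 2 libraries a group, none of these orders was tested.

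Per kb, the start-site regions of the 10 genes had means from 2.19 to 3.88 RPM per kb, and their lengths differed. Over the 6 libraries the means were 3.88 ± 0.830 RPM per kb at Sirt5, 3.85 ± 0.923 at Sirt3, 3.62 ± 1.15 at Sirt1, 3.52 ± 0.797 at Nmnat1 and 3.41 ± 0.741 at Parp1 (SD, n = 6). They were 3.35 ± 0.280 at Nampt, 3.32 ± 0.637 at Sirt2, 3.04 ± 0.352 at Sirt7, 2.91 ± 0.678 at Sirt6 and 2.19 ± 0.165 at Sirt4, in RPM per kb. Each neighbour in this order differed by less than the larger of the 2 SDs, except Sirt6 and Sirt4. These SDs are over libraries of all 3 groups, so they include differences between groups and are not a replicate spread. At Sirt1 the SD was 1.15, against 0.434 to 0.735 within groups. The median of the 9750 regions over protein-coding starts was 3.07 RPM per kb, and Sirt5 lay above 84.2% of them and Sirt4 above 5.35%. The Sirt5 region was 2000 bp long with 5.31 to 9.74 RPM, and the Sirt4 region 17000 bp with 34.2 to 41.3 RPM. The order per kb is thus not an order of total H3ac. In Old alone, Sirt1 and Sirt3 stood at 2.47 ± 0.434 and 2.78 ± 0.444 RPM per kb (SD, n = 2), beside 4.84 ± 0.735 and 4.67 ± 0.319 in Young.

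**Figure D5:**
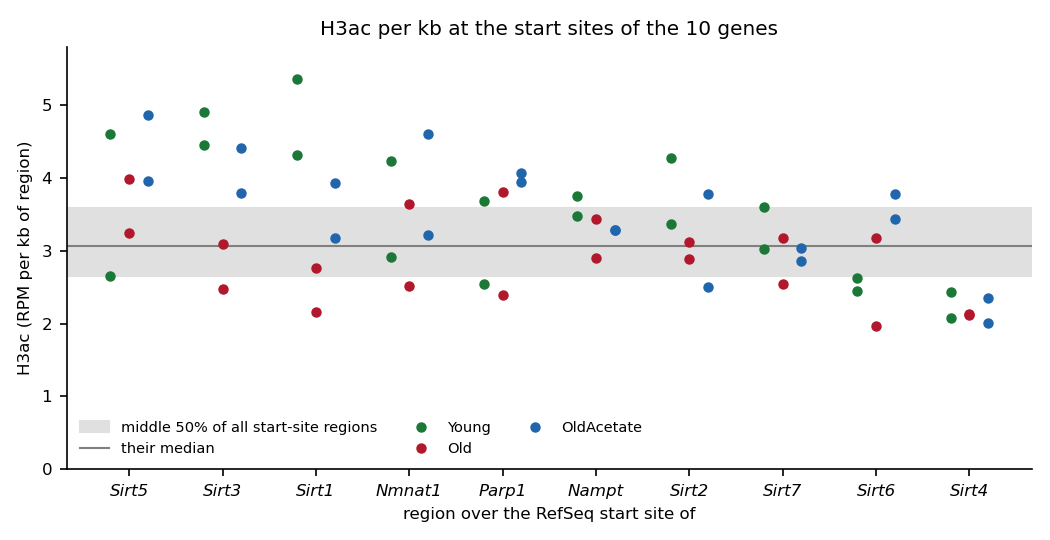
H3ac in RPM per kb (y axis, from 0) of the region over each RefSeq start in every library (points by group), with genes ordered by their mean and the median and middle 50% of the 9750 start-site regions as line and band. Over all 6 libraries Sirt5 has the highest mean (3.88) and Sirt4 the lowest (2.19), while among the Young libraries alone Sirt1 (4.84), Sirt3 (4.67) and Sirt2 (3.82) lie above Sirt5 (3.63).

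Other genes of NAD metabolism gave no call after scaling. Of 18 further genes of NAD synthesis, 10 had a region over or within 1 kb of the start site. Of these, limma called 0 of 10 when Old was set against Young or OldAcetate against Old, scaled or as given. After scaling, 0 had an unadjusted p under 0.05, and the median differences were 0.01 and 0.08. The starts of Nmnat3, Qprt, Nmrk2, Tdo2, Ido1, Kmo, Kynu and Haao had no region over or within 1 kb of them. After scaling, the lowest p over these lists in both comparisons was that of Nmrk1, which makes nicotinamide mononucleotide from nicotinamide riboside. It held 141 and 133 RPM in Young, 122 and 121 RPM in Old and 126 and 128 RPM in OldAcetate. Its scaled differences were 0.18 (SE 0.09, limma adjusted p = 0.894) and -0.18 (SE 0.09, limma adjusted p = 0.804), and those as given had the opposite sign, -0.17 and 0.06.

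Of 18 further NAD-consuming enzymes and their partners, 15 had a region over or within 1 kb of the start, all but Parp10, Parp11 and Sarm1. After scaling, limma called 0 of 15 in each comparison, with 0 at an unadjusted p under 0.05, and the median differences were 0.01 for Old vs Young and 0.04 for OldAcetate vs Old. As given, 2 of the 15 were called lower in Old, beside 9.52% of all regions called, and are named after their values were seen. Tnks, a tankyrase, held 101 and 78.8 RPM in Young and 61.0 and 64.4 RPM in Old, a log2 difference of -0.51 (limma adjusted p = 0.0220). Parp8 held 69.7 and 53.9 RPM in Young and 42.5 and 45.3 RPM in Old, a difference of -0.48 (limma adjusted p = 0.0442). Of the 11 zinc-dependent histone deacetylases, which need no NAD, 6 had a region over or within 1 kb of the start and limma called 0 in each comparison. Their median scaled difference was -0.03 for Old vs Young, and OldAcetate vs Old had the same median, -0.03. The lowest p over the lists after scaling in OldAcetate vs Young was that of Hdac3, with 35.2 and 39.6 RPM in Young, 25.4 and 25.5 RPM in Old and 26.2 and 27.1 RPM in OldAcetate, a scaled difference of -0.37 (SE 0.17, limma adjusted p = 0.964).

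The start-site regions most like those of Sirt1 and Nampt were taken by Pearson's r of scaled log2 values over the 6 libraries, given as a description. For Sirt1 they were the regions of Ahnak2 and Clba1 (r = 0.990), Ttc32 (0.969) and Tlnrd1 and Mesd (0.966), of 5887 compared, and 11 regions had r over 0.95. For Nampt they were Amn1 (r = 0.994), the region of Gpr62, Parp3 and Rrp9 (0.949) and Bmpr2 (0.949), of 5886 compared, and 1 had r over 0.95. With 6 libraries in 3 groups that share depth and scaling, the points are not independent. The named regions are the top of 5887 and 5886 values of r, each over 6 points. Such a search can give high values by chance, and whether these exceed chance was not tested.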

How the data were processed

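H3ac CUT&RUN libraries of mouse bone MSCs were grouped by their labels. Per the submitters' processing notes, the authors used Bowtie2, Picard and mm10; versions and the region caller are not given in the sources used here. The deposited table is named as RPKM but holds RPM: 100% of values were whole multiples of the value of 1 read (tolerance 0.01), whatever the region length, which gave whole reads and library totals (2163351 to 3039481). The 17 regions held 5 to 172 reads per library (median 34.0), which limits their precision. Yeast DNA was added in the stop buffer, and its use for scaling is not stated.

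All 24431 regions were fitted together with limma 3.58.1 (eBayes with trend and robust, R 4.3.3) on log2(RPM + 0.5), which understates changes of low regions, after median scaling, with no filter. All 6 libraries entered, with Benjamini-Hochberg adjustment over all regions at 0.05. The same fit was run without scaling ("as given"). edgeR 4.0.16 (quasi-likelihood) was run on the whole reads as an alternative. The fit was tested on simulated data. Other alternatives were pseudocounts of 0.1 and 1, quantile normalization, leaving out the 25% of regions with the lowest mean, a replicate block, each library left out, other region rules (0 or 10 kb, start sites only) and fewer libraries. The 10 genes, the lists and the rule for named genes (the 10 genes, called genes of the NAD and deacetylase lists or else the lowest p per comparison, and the 3 regions most like Sirt1 and Nampt) were chosen with earlier results of these data known.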

Additional observations from a re-analysis of the deposited data

How the results depend on the processing

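With 2 libraries a group and 5 to 172 reads per region, small differences could not be resolved. Scaling mattered most. Without it, 3 regions were called for Old vs Young (median -0.21) and 1 for OldAcetate vs Old (median 0.28). Without scaling, leaving out a library gave 0 (without Young replicate 1) to 2 calls in Old vs Young, with 1 without Old replicate 2, and 0 (without OldAcetate replicate 1 or 2) to 1 in OldAcetate vs Old. The OldAcetate vs Old median, 0.04, was -0.13 without the lowest 25% of regions, which removed 5 of the 17, and -0.12 to 0.10 with a library left out. The summed level, as a share of the reads in all regions, was 105% for Old of Young, 97.4% for OldAcetate of Old and 102% for OldAcetate of Young. It was 88.5% in Old vs Young over GENCODE start-site regions alone and 126% in OldAcetate vs Old as a geometric mean.

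Replicate differences correlated at 0.01, -0.03 and -0.04 between groups, so no pairing by replicate number was seen. With median reads per region of 31 to 56, counting error could hide a pairing, so none is excluded. With the replicate block 0 of the 17 regions were called after scaling, and without scaling, in a fit chosen after seeing the data, 3, 1 and 0 for Old vs Young, OldAcetate vs Old and OldAcetate vs Young. Of 699 values of single regions under alternatives changing 1 choice, 695 kept their side of the threshold, 4 were called without scaling, and none turned direction where both values exceeded their SE. Fits with no scaling and a library left out, and those over RefSeq starts alone, were also chosen after seeing the data.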
